A study of Mus musculus with 12 samples.

Results

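The *Ifitm* genes encode small membrane proteins, and 4 of them were followed here: *Ifitm1* (Gene ID 68713), *Ifitm2* (Gene ID 80876), *Ifitm3* (Gene ID 66141) and *Ifitm10* (Gene ID 320802). They were taken by symbol from the 27179 genes of the count table, and the choice was made with their values in *FRAIL1* and Control muscles already known. All 4 passed the expression filter that 15502 genes passed. The difference between the groups is therefore described for them without a test. The table holds 7 *Ifitm* genes in all, and the other 3 are given as relatives.

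*FRAIL1* is a human long noncoding RNA of skeletal muscle, and the experiment asked what its forced expression changes in mouse muscle. Male wild-type C57BL/6N mice, 6 to 8 weeks old on arrival and used within 2 weeks, had both tibialis anterior (TA) muscles electroporated. Of the 6 mice, each received 10 μg of empty plasmid (pcDNA3) in 1 TA, here called Control, and 10 μg of plasmid carrying full-length *FRAIL1* in the opposite TA, and muscles were taken on day 7. Poly(A)+ RNA of 12 whole muscles was sequenced, so both groups share the injection and the electric pulses, muscle without plasmid was not analysed here, and each value sums over all cells of the tissue. In such tissue a smaller number of cells of a type and less RNA per cell cannot be told apart.

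Total counts ranged from 44848322 to 60527385 per muscle. Levels are given as CPM, each gene's share of the library's counts, scaled by the trimmed mean of M-values (TMM), whose factors lay between 0.935 and 1.07 apart from 1.19 in *FRAIL1* muscle 5. All 10 myofiber markers were detected, with sums of 176950 to 206652 CPM in Control and 132079 to 188631 CPM in *FRAIL1* muscles. In the test of edgeR, 974 of 15502 genes (6.28%) passed an adjusted p of 0.05, 687 of them higher (4.43%) and 287 lower (1.85%) in *FRAIL1* muscles. This test did not use the pairing of legs within a mouse, and with a block for equally numbered muscles 2186 genes passed. Without any overlap between the groups were 757 genes (4.88%), of which 483 were higher (3.12%). An unadjusted p under 0.05 was reached by 4297 genes (27.7%).

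IFITM proteins span or dip into cell membranes through a conserved CD225 domain, and they hinder the fusion of enveloped viruses with the cell. IFITM1 sits largely at the cell surface, and IFITM2 and IFITM3 largely in endosomes and lysosomes. Type I interferon raises *Ifitm1*, *Ifitm2* and *Ifitm3* through receptor-bound JAK kinases and factors that bind interferon-stimulated response elements (ISRE) in promoters. Interferon gamma acts mainly through a different promoter element, GAS. IFITM10 has the same domain, but is not known as an interferon target and its role is poorly described.

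*Ifitm1*, *Ifitm2* and *Ifitm3* lie next to each other on chromosome 7 of GRCm38, the assembly also called mm10. RefSeq places *Ifitm2* at chr7:140954837-140959686 (minus strand), *Ifitm1* at chr7:140967429-140969827 (plus strand), *Ifitm3* at chr7:141009590-141010744 (minus strand) and *Ifitm10* farther along at chr7:142325835-142373779 (minus strand). The coding sequences of *Ifitm2* and *Ifitm3* share an identical run of 69 bases. The stretch around it is shown because reads that lie wholly inside it would fit both genes. Before trimming, the paired reads of the study were longer than this run, so only shortened reads could lie wholly inside it. Capitals mark the shared run, and both lines are coding sequence of the mRNA, bases 115 to 213 of *Ifitm2* and 118 to 216 of *Ifitm3* counted from the start codon.
Ifitm2: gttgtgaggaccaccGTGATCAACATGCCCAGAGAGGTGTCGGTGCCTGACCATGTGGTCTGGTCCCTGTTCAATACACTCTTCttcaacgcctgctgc
Ifitm3: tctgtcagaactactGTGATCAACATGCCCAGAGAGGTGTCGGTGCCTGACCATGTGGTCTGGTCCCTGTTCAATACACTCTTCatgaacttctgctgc

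The longest run that *Ifitm1* shared was 64 bases with *Ifitm3* and 40 bases with *Ifitm2*, and *Ifitm10* shared at most 14 bases with any of them. No whole alignment of another GENCODE gene to *Ifitm1*, *Ifitm2* or *Ifitm3* transcripts reached 98% identity over 100 bases or more. At 90% identity, 5 predicted genes each matched 62.6 to 66.0% of the *Ifitm2* transcript, *Gm6885* matched 52.1% of *Ifitm3* and *Gm7676* 36.2% of *Ifitm1*. GENCODE also lists overlapping genes on the same strand, *Gm45717* over 40.9% of the exon bases of *Ifitm2* and *Gm49369* over 4.49% of those of *Ifitm10*. Overlapping exon bases are identical in both genes, which the average over a longer alignment does not show. At 90% identity *Gm45717* matched 44.4% of the *Ifitm2* transcript. Only uniquely mapping reads were counted, and how reads in these stretches were assigned was not measured.

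RefSeq promoters, 250 bases before to 50 bases after a start site, were searched on both strands for an ISRE core (GAAANNGAAA) and a GAS core (TTCNNNGAA). Windows are shown for the 2 members with a match to the ISRE core, marked in capitals, on the minus strand of GRCm38.p6. The first is chr7:140956017 down to 140955988, and the second is chr7:141010743 down to 141010714.
Ifitm2: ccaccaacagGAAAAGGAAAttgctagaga
Ifitm3: gGAAAAGGAAActtctgaGAAACCGAAAct

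*Ifitm2* held 1 ISRE core, starting at position -46 from the start site of its window. *Ifitm3* held 2, starting at positions 3 and 20, with a GAS core (TTCTGAGAA) at position 14 that overlaps the second. The windows of *Ifitm1* and *Ifitm10* held neither core, although the window of *Ifitm1* covers only 1 of its annotated start sites. The window of *Ifitm2* likewise belongs to a start site inside the RefSeq gene span given above, and the far end of that span was not searched. Of all 32851 windows, 3.44% held the ISRE core and 8.30% the GAS core. Of the 42 windows of 35 interferon-stimulated genes, 17 held the ISRE core (40.5%) and 10 the GAS core (23.8%). These are matches of letters, and binding was not measured.

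The 4 mRNAs differed widely in level in Control muscles when compared per kilobase of exon. *Ifitm3* was highest at 136 ± 22.9 CPM per kb (SD, n = 6), followed by *Ifitm2* at 74.9 ± 6.81 CPM per kb (SD, n = 6). *Ifitm1* measured 1.14 ± 0.279 and *Ifitm10* 0.515 ± 0.0922 CPM per kb (SD, n = 6 each). *Ifitm3* was thus 1.82 times *Ifitm2*, *Ifitm2* 65.5 times *Ifitm1*, and *Ifitm1* 2.22 times *Ifitm10*. Each neighboring pair in this order had ranges that did not overlap over the 6 Control muscles, also when the length of the longest transcript was used.

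*Ifitm1* was the member with the lowest level relative to Control in *FRAIL1* muscles. In Control muscles it ranged from 0.790 to 1.69 CPM with a median of 1.30 CPM, and in *FRAIL1* muscles from 0.486 to 0.763 CPM with a median of 0.636 CPM. Every *FRAIL1* muscle lay below every Control muscle, as was the case for 274 of all tested genes (1.77%). The gap was narrow, between Control muscle 6 and *FRAIL1* muscle 1, and with scaling by library size alone the ranges met (0.748 to 1.599 and 0.496 to 0.792 CPM). Its mean was 1.25 ± 0.305 CPM in Control and 0.632 ± 0.125 CPM in *FRAIL1* muscles (SD, n = 6), a log2 fold change of -0.98 (SE 0.214). These levels rest on 36 to 72 counts per Control muscle and 26 to 44 per *FRAIL1* muscle.

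In each group the muscles are numbered from 1 to 6, and the labels do not say that a number marks 1 mouse. Between muscles of the same number the log2 ratio of *Ifitm1*, *FRAIL1* over Control, was negative in 6 of 6, as for 11.7% of all tested genes. It spanned -1.80 at number 5 to -0.16 at number 6. Number 5 held both the highest Control muscle and the lowest *FRAIL1* muscle, and number 6 the lowest Control muscle. Without both muscles numbered 5 the log2 fold change was -0.81.

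*Ifitm10* moved the other way. It ranged from 1.82 to 2.95 CPM with a median of 2.57 CPM in Control muscles, and from 2.57 to 5.34 CPM with a median of 3.49 CPM in *FRAIL1* muscles. The groups overlapped, because *FRAIL1* muscle 6 lay below Control muscles 1, 2 and 5, while the other 5 *FRAIL1* muscles lay above all Control muscles. The log2 fold change was 0.57 (SE 0.172), from 2.47 ± 0.442 to 3.68 ± 0.920 CPM (SD, n = 6). The ratio was above 1 in 6 of 6 replicate numbers, as for 11.5% of all tested genes, from 1.06 at number 6 to 2.12 at number 3. The counts were 88 to 157 in Control and 131 to 273 in *FRAIL1* muscles.

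*Ifitm3*, the most abundant member and the one best known for restricting influenza virus, differed little between the groups. It ranged from 69.9 to 112 CPM with a median of 95.5 CPM in Control muscles and from 73.5 to 118 CPM with a median of 104 CPM in *FRAIL1* muscles. The ranges nearly coincided, and the log2 fold change of 0.13 (SE 0.125) was about the size of its error. Among replicate numbers 4 of 6 were higher in the *FRAIL1* muscle, and the log2 ratio spanned -0.35 at number 3 to 0.75 at number 6.

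*Ifitm2*, the endosomal relative of *Ifitm3*, was the steadiest. It ranged from 45.1 to 57.4 CPM with a median of 48.0 CPM in Control muscles and from 42.3 to 61.0 CPM with a median of 49.9 CPM in *FRAIL1* muscles. Its log2 fold change of 0.05 (SE 0.0912) was smaller than the error, and 3 of 6 numbers were higher. By the rule of an adjusted p under 0.05, 1 of the 4 members was called, *Ifitm1*, beside 6.28% of all tested genes. Since the members were chosen on this contrast, nothing is read from that count or from the call of *Ifitm1*.

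**Figure D1:**
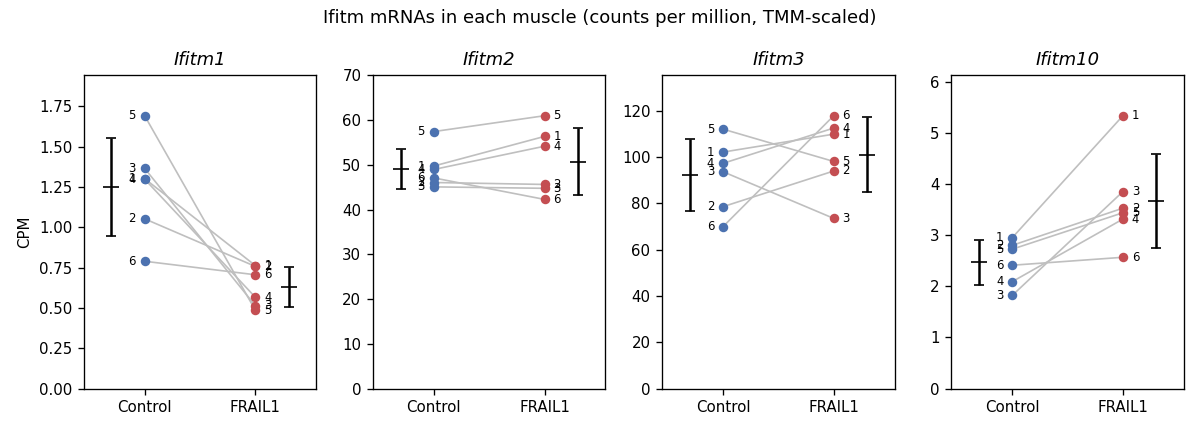
CPM (vertical axes, linear and starting at 0) of the 4 members in 6 Control (blue) and 6 *FRAIL1* (red) muscles, with the replicate number beside each point, gray lines joining muscles of the same number, and mean ± SD as black bars. All *FRAIL1* muscles lie below all Control muscles for *Ifitm1*, most lie above for *Ifitm10*, and the groups overlap for *Ifitm2* and *Ifitm3*.

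Among muscles of the Control group *Ifitm3* varied more than most genes of its level. Its coefficient of variation over Control muscles was 16.8%, against a median of 6.69% over 2138 genes within 2-fold of its level, at percentile 94.2 of those genes. *Ifitm2* had 9.09% against a median of 6.99%. The less abundant members had spreads typical of their level, 24.4% against 23.9% for *Ifitm1* and 17.9% against 17.8% for *Ifitm10*.

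The spread of *Ifitm3* followed that of the interferon-stimulated genes. After each group's mean log2 CPM was subtracted, its deviations over 12 muscles had a Pearson r of 0.961 and a Spearman rho of 0.909 with the mean deviation of 45 interferon-stimulated genes. Within the groups r was 0.944 over 6 Control and 0.984 over 6 *FRAIL1* muscles, and 0.909 without the 2 muscles farthest from the median. *FRAIL1* muscle 3 was lowest for both, at -0.44 for *Ifitm3* and -0.74 for the interferon-stimulated genes on the log2 scale. Control muscle 6 came next, at -0.38 and -0.51, followed by Control muscle 2 at -0.21 and -0.41. These correlations are descriptions over muscles that share an experiment and, in pairs, a mouse.

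Taken gene by gene, 44 of the 45 interferon-stimulated genes had an r above 0.7 with *Ifitm3*, with a median of 0.896, against 4.08% of all other tested genes. For *Ifitm1* 4 of 45 did, with a median of 0.58, against 0.748% of all genes. For *Ifitm2* and *Ifitm10* 0 of 45 did, with medians of 0.32 and -0.21. The r with the mean of the list was 0.621 for *Ifitm1*, 0.315 for *Ifitm2* and -0.211 for *Ifitm10*. The value for *Ifitm1* was 0.334 without the 2 farthest muscles, and it was 0.872 in Control and 0.386 in *FRAIL1* muscles. In *FRAIL1* muscles *Ifitm1* rests on 26 to 44 counts and *Ifitm10* on 131 to 273, against 4291 to 6012 for *Ifitm3*. The part of counting noise in the lower r was not tested. The differences between members in these values were not tested.

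**Figure D2:**
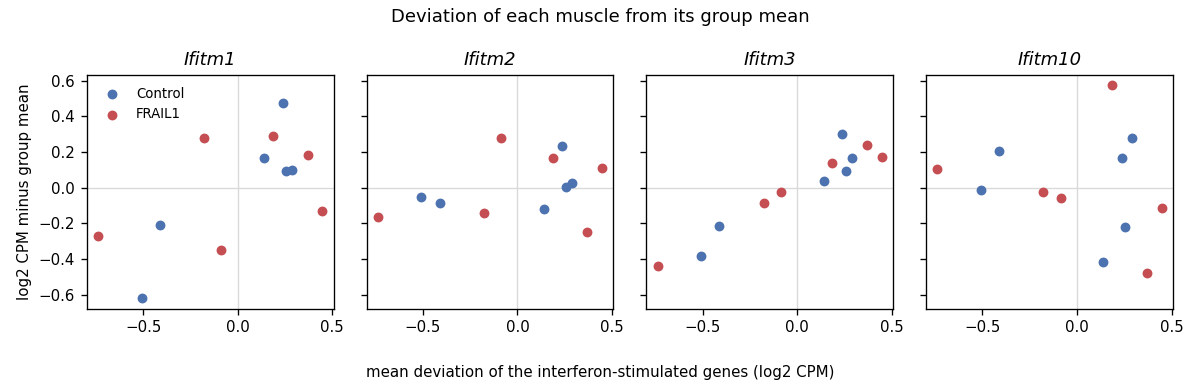
Deviation of each member's log2 CPM from its group mean (vertical axis) against the mean deviation of 45 interferon-stimulated genes (horizontal axis, log2 CPM) in 6 Control (blue) and 6 *FRAIL1* (red) muscles. The points of *Ifitm3* form a line with r of 0.961, and those of *Ifitm10* scatter with r of -0.211.

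The genes whose deviations were most like those of each member differed between members. For *Ifitm3* they were *Apol9a* (r of 0.987), the surface antigen gene *Ly6a* (0.972) and *Zbp1* (0.968), which encodes a sensor of Z-form nucleic acid. *Apol9a* ranged from 3.75 to 10.8 CPM in Control and 3.08 to 9.86 CPM in *FRAIL1* muscles, lowest in Control muscle 6 and *FRAIL1* muscle 3 as *Ifitm3* was. For *Ifitm2* they were *Rps18* (0.952), a ribosomal protein gene, *Nt5c* (0.940), a nucleotidase gene, and *Rrbp1* (0.938), which encodes a ribosome-binding protein of the endoplasmic reticulum. For *Ifitm1* they were *Slc7a11* (0.899), the cystine transporter gene, *Hsph1* (0.869), a chaperone gene, and *P4ha1* (0.867), a collagen prolyl hydroxylase gene. For *Ifitm10* they were *Shisa4* (0.925), *Frat2* (0.923) and *Rnf41* (0.905), a ubiquitin ligase gene. These are the highest of 15501 values per member over 12 muscles and carry no test. *Slc7a11* rests on 4 to 59 counts per muscle. Without the 2 muscles farthest from the member's median, r was 0.814 for *Slc7a11*, 0.725 for *Hsph1*, 0.738 for *P4ha1* and 0.751 for *Rnf41*. It was 0.867 to 0.970 for the other genes. The Spearman rho of *Rnf41* was 0.664 over all 12 muscles.

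*Ifitm2* had the highest median r with the macrophage markers, with *Ifitm3* close to it. Its median r with 10 of them was 0.71, and 5 of 10 were above 0.7, against 5.20% of all tested genes. The median was 0.61 for *Ifitm3*, 0.26 for *Ifitm1* and 0.29 for *Ifitm10*. For *Ifitm3* 4 of 10 were above 0.7, against 4.08% of all tested genes, and for *Ifitm1* and *Ifitm10* 0 of 10 were. The summed level of these markers was 246 to 384 CPM in Control and 311 to 791 CPM in *FRAIL1* muscles, with none at 0. *Ifitm2* and *Ifitm3* each also had 2 of 8 lymphocyte and 1 of 3 neutrophil markers above 0.7.

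Whether a member's level was shared by muscles of the same replicate number was tested on log2 CPM over the 6 numbers, for 4 members, with a two-sided exact permutation test whose smallest possible p is 0.00278. *Ifitm2* gave r of 0.857 and rho of 0.829, with an exact permutation p of 0.025 for r, and 0.1 after Benjamini-Hochberg adjustment over the 4 members. Its Control and *FRAIL1* muscles were both highest at number 5. *Ifitm1* gave r of -0.683 (exact permutation adjusted p = 0.278), *Ifitm3* -0.187 and *Ifitm10* 0.283 (exact permutation adjusted p = 0.753 for both). No member passed the threshold. Without the 2 numbers farthest from the median, r was 0.882 for *Ifitm2*, -0.653 for *Ifitm1*, 0.394 for *Ifitm3* and 0.932 for *Ifitm10*, over 4 numbers each.

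Members were also compared with each other over the 6 numbers, with both muscles averaged. *Ifitm1* and *Ifitm10*, which differed in opposite directions between the groups, had r of 0.916 and rho of 0.886 (exact permutation p = 0.0111, adjusted p = 0.0667), but r of 0.621 on CPM without the log (exact permutation adjusted p = 0.333). *Ifitm2* and *Ifitm3* had r of 0.866 and rho of 0.771 (exact permutation adjusted p = 0.208), and 0.829 without the log. The other 4 pairs had r between 0.431 and 0.618, with exact permutation adjusted p-values of 0.4 to 0.411. No pair passed the threshold. Without the 2 farthest numbers r was 0.916 for *Ifitm1* and *Ifitm10*, 0.896 for *Ifitm2* and *Ifitm3*, 0.601 for *Ifitm1* and *Ifitm2*, 0.391 for *Ifitm1* and *Ifitm3*, and 0.641 for *Ifitm3* and *Ifitm10*. For *Ifitm2* and *Ifitm10* it turned from 0.467 to -0.040. With 1 number left out at a time, r for *Ifitm3* and *Ifitm10* spanned 0.080 to 0.657.

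The other genes of the family and the relatives with a CD225 domain gave 1 call among 7 tested of 10, beside 6.28% of all tested genes. By edgeR 3 of the 7 had an unadjusted p under 0.05, against 27.7% of all tested genes. *Tmem91* was higher in *FRAIL1* muscles by edgeR's test (log2 fold change 1.77, SE 0.401, adjusted p = 0.0220), with 1 to 6 counts per Control and 11 to 21 per *FRAIL1* muscle. Its adjusted p by edgeR was 0.0536 without *FRAIL1* muscle 1. The relative with the highest level, *Tmem233*, measured 82.5 ± 5.65 CPM in Control and 63.9 ± 12.5 CPM in *FRAIL1* muscles (SD, n = 6; edgeR adjusted p = 0.0609). *Ifitm6* had a log2 fold change of 0.37 (SE 0.374), *Prrt1* 0.39, *Prrt2* 0.28, *Syndig1* 0.87 and *Trarg1*, a regulator of glucose transporter traffic, -0.02, and none of these passed the test. *Ifitm5*, known from bone, stayed below the filter at 0.107 to 0.395 CPM, *Syndig1l* was below it too, and *Ifitm7* was listed at 0 in all 12 muscles.

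Among 9 genes whose proteins bind or modify IFITM proteins, 0 were higher and 1 was lower by edgeR, 3 had an unadjusted p under 0.05 (27.7% of all tested genes did), and the median log2 fold change was 0.00, against 0.01 over all tested genes. The lower one was *Setd7*, which encodes a lysine methyltransferase that acts on IFITM3. It measured 244 to 321 CPM in Control and 130 to 248.6 CPM in *FRAIL1* muscles (log2 fold change -0.52, SE 0.122, edgeR adjusted p = 0.0267). Leaving out any 1 of Control muscles 1, 2, 3 and 4 or *FRAIL1* muscles 1 and 4 took its edgeR adjusted p above 0.05, to at most 0.0623. *Nedd4*, whose product ubiquitinates IFITM3, had a log2 fold change of 0.06, and *Zdhhc20*, whose product adds palmitate to it, one of 0.32, and neither passed the test.

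Interferon receptors and signaling genes numbered 18, all tested. Of these 0 were higher and 1 was lower by edgeR, 4 had an unadjusted p under 0.05, no larger a share than the 27.7% of all tested genes, and the median log2 fold change was -0.09. *Jak2*, the kinase of the interferon gamma receptor among others, measured 68.5 to 98.8 CPM in Control and 34.96 to 66.8 CPM in *FRAIL1* muscles, which did not overlap (log2 fold change -0.51, SE 0.137, edgeR adjusted p = 0.0445). Its edgeR adjusted p was between 0.0624 and 0.0923 without any 1 of Control muscles 1 to 5 or *FRAIL1* muscles 1, 4 and 6. *Irf7*, which amplifies interferon production, had a log2 fold change of 0.31 (edgeR adjusted p = 0.323).

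Of 45 interferon-stimulated genes tested, 0 passed edgeR's test in either direction, 3 had an unadjusted p under 0.05 against 27.7% of all tested genes, and DESeq2 called 1, which was lower. The median log2 fold change was 0.07, and 30 of 45 were positive, against 51.6% of all tested genes. *Isg15*, an ubiquitin-like modifier, had a log2 fold change of 0.36 (SE 0.260, edgeR adjusted p = 0.394) and *Bst2*, the virus-tethering protein tetherin, one of 0.04 (SE 0.197, edgeR adjusted p = 0.922). The log2 fold changes of the list ranged from -0.85 to 0.50. Of the 3 genes with an unadjusted p under 0.05 by edgeR, *Gbp7* (-0.85) and *Gbp3* (-0.56) were lower and *Trim25* (0.21) was higher.

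**Figure D3:**
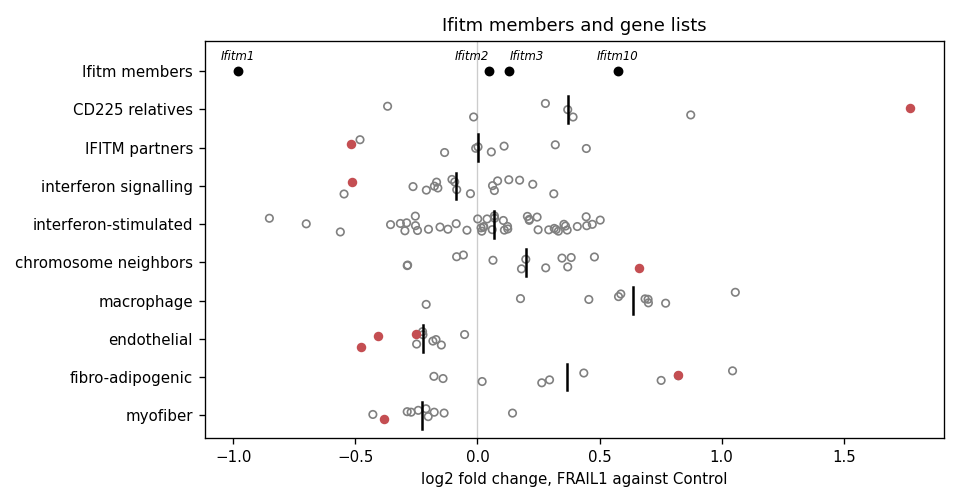
Log2 fold change, *FRAIL1* against Control muscles (horizontal axis), of the 4 members (black) and of tested genes of 9 lists, with red points for genes past an adjusted p of 0.05 by edgeR, open points for the others and a black line at each median. The members lie at -0.98, 0.05, 0.13 and 0.57, and the 45 interferon-stimulated genes spread from -0.85 to 0.50 without a call.

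Around the members on chromosome 7, 13 of 21 genes starting within 0.1 Mb were tested, and by edgeR 1 was higher and 0 lower, with 6 at an unadjusted p under 0.05 against 27.7% of all tested genes. *Ric8a*, which encodes a chaperone of G protein alpha subunits and begins 97.4 kb before *Ifitm2*, measured 19.5 to 22.7 CPM in Control and 25.9 to 44.2 CPM in *FRAIL1* muscles (log2 fold change 0.66, SE 0.104, edgeR adjusted p = 0.00391). The nearest tested neighbors of *Ifitm1* other than members, *Pgghg* (0.35) and *Ifitm6* (0.37), did not pass the test. Neither did *Ctsd*, the cathepsin D gene beside *Ifitm10* (0.06). The median over the 13 genes was 0.20, and 4 were called higher without *FRAIL1* muscle 2 or 3.

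**Figure D4:**
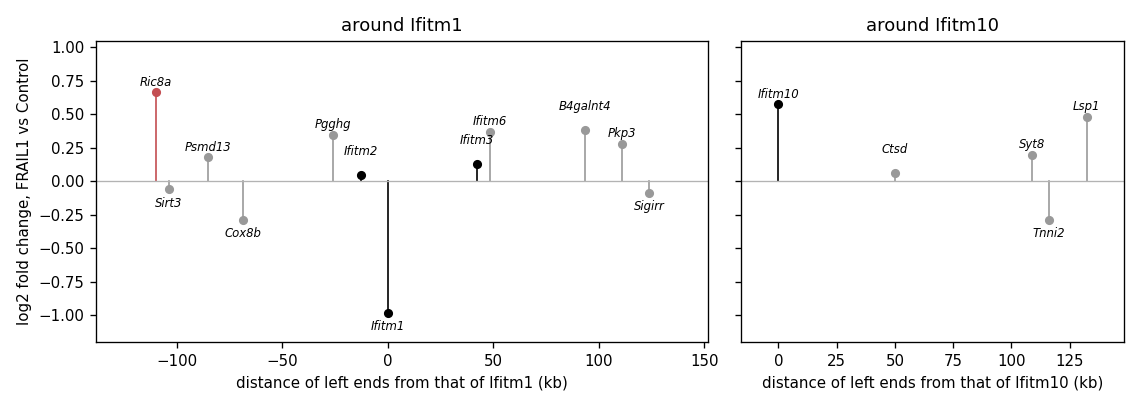
Log2 fold change, *FRAIL1* against Control muscles (vertical axis), of the members (black) and tested neighboring genes (gray, or red where the adjusted p by edgeR was under 0.05) against the distance in kb of each gene's left end from that of *Ifitm1* or *Ifitm10*. *Ifitm1* lies at -0.98 and *Ifitm10* at 0.57, and the tested neighbors lie between -0.29 and 0.66.

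Markers of other cells in the tissue moved between the groups beside these values, and their part in the members' levels was not tested. Of 10 endothelial markers, 0 were higher and 3 (*Tek*, *Flt1* and *Vwf*) were lower by edgeR, with a median log2 fold change of -0.22 and sums of 560 to 656 CPM in Control and 449 to 559 CPM in *FRAIL1* muscles. Without any 1 of Control muscles 1, 2, 3, 4 and 6 or *FRAIL1* muscles 1 and 6, only 1 endothelial marker was called. The 10 macrophage markers had a median of 0.64 with 0 calls by edgeR and 7 at an unadjusted p under 0.05 (27.7% over all tested genes), and 3 and 7 were called higher without *FRAIL1* muscles 2 and 3. With a replicate block, 6 macrophage markers were called higher and 5 endothelial markers lower. Of 10 fibro-adipogenic markers 1 (*Col1a2*) was higher, with a median of 0.37 and sums of 1351 to 2483 and 2553 to 6373 CPM, and of 5 tenocyte markers 2 (*Thbs4* and *Scx*) were higher, with a median of 0.57 and sums of 142 to 298 and 238 to 478 CPM. Of 10 myofiber markers 1 (*Ckm*) was lower, with a median of -0.23. Over all tested genes 4.43% were called higher and 1.85% lower. An unadjusted p under 0.05 by edgeR was reached by 6 endothelial, 5 fibro-adipogenic, 2 tenocyte and 5 myofiber markers, against 27.7% of all tested genes. Neutrophil (3 of 9 tested), lymphocyte (8 of 9), smooth muscle and pericyte (8), satellite cell (5) and Schwann cell (5) markers gave 0 calls by edgeR, with 0, 0, 4, 3 and 1 at an unadjusted p under 0.05, again beside 27.7% over all tested genes, and medians of 0.60, -0.15, -0.18, 0.36 and -0.26.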

How the data were processed

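RNA-seq counts of 12 TA muscles were analysed, 6 Control and 6 *FRAIL1*. The authors trimmed reads with Trimmomatic, mapped them to mm10 with STAR 2.7.8a and deposited featureCounts 2.0.1 counts of uniquely mapping reads per NCBI Gene ID, without normalization. The strand setting is not given in the sources used here. Of 27179 genes, 25275 were matched to a symbol, and the others held 0.280% of counts. Libraries of a group differed beyond sampling noise, with a chi-square per degree of freedom of at least 15.2.

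Genes passing filterByExpr (15502) were TMM-scaled and tested with edgeR 4.0.16 (robust quasi-likelihood, no block) in R 4.3.3, adjusted by Benjamini-Hochberg over all of them. The SE of a log2 fold change is its absolute value divided by the square root of the edgeR F statistic. For the members it therefore comes from the same contrast and serves as description only. The script was tested on simulated data. Correlations of deviations from group means used log2 CPM with a prior count of 0.5. Those over replicate numbers used log2 CPM without a prior count, and exact permutation tests used SciPy 1.17.1. Sequences came from RefSeq (GRCm38.p6) and GENCODE (GRCm38), and copies were searched with BLAST 2.17.0. Members and lists were chosen with earlier results of these data known. Named are the members, CD225 relatives, genes past the threshold in lists of partners, signaling, interferon-stimulated and neighboring genes, standard interferon genes (1 of them is not reported here), and the 3 genes most like each member. Further relatives, partners, neighbors, interferon-stimulated genes and cell type markers were named by hand after their values were seen. One interferon-stimulated gene of 46 was not matched. Alternatives were other scalings and filters, DESeq2 1.42.0, limma 3.58.1 voom, a non-robust fit, a replicate block and each muscle left out. Leaving out both muscles numbered 5, and the overlap of groups scaled by library size alone, were added after seeing the data.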

Additional observations from a re-analysis of the deposited data

Results flagged for a closer look

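*Prrt2*, a CD225 relative of the members that acts at synapses, was high in *FRAIL1* muscle 5 alone. It measured 6.08 CPM there, and the next highest *FRAIL1* muscle had 3.69 CPM, a gap of 0.727 of the group's range which is above Dixon's critical value for 6 muscles. About 1 in 20 groups shows such a gap by chance. This muscle also had the highest TMM factor, 1.19, and the lowest *Ifitm1* level, and the part of either was not tested.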

How the results depend on the processing

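The log2 fold changes of *Ifitm1* (-1.08 to -0.81) and *Ifitm10* (0.44 to 0.65) and *Ifitm3* (0.06 to 0.21) kept their direction in 22 alternatives, and that of *Ifitm2* stayed between -0.01 and 0.10. Calls over all genes ranged from 364 to 2232. Same-numbered muscles deviated from group means with r of 0.236, 0.155, 0.264, 0.245, 0.0479 and 0.176 over genes, and 5 of 6 Control muscles correlated best with their own number. The study's methods state no block, and the main test did not take the numbers as pairs. The design pairs the 2 legs of a mouse, so if a number marks 1 mouse, the main test left that pairing unused. The mean r was 0.187 between Control and *FRAIL1* muscles of the same number and -0.0375 between those of different numbers. The permutation tests over replicate numbers did use the numbers as units. With a replicate block, calls rose from 974 to 2186, and log2 fold changes were -0.96 for *Ifitm1* and 0.56 for *Ifitm10*. The block gave 1 lower relative, 2 lower signaling genes, 3 higher neighbors, 6 higher macrophage and 5 lower endothelial markers. DESeq2 gave 0 higher and 1 lower relative, 1 higher partner, 2 lower signaling genes, 1 lower interferon-stimulated gene, 4 higher and 2 lower neighbors, and 6 higher macrophage markers. For *Tmem91* DESeq2 listed no adjusted p. At least 10 counts in every muscle, which *Tmem91* did not reach, left 0 higher relatives and 1 lower neighbor. No filter left 0 lower signaling genes. Size factors, upper-quartile scaling and TMM without top genes each gave 1 lower neighbor, and the non-robust fit gave 2 higher macrophage markers. With *Ifitm10* divided by its longest transcript the level was 0.723 CPM per kb. Leaving out 1 muscle gave 0 to 1 higher and 0 to 1 lower relatives, 0 to 1 lower partners, 0 to 1 higher and 0 to 2 lower signaling genes, 1 to 4 higher and 0 to 1 lower neighbors, 0 to 7 higher macrophage and 1 to 4 lower endothelial markers. *Bst2* spanned -0.047 to 0.15 and turned sign in 5 of these (-0.047 and -0.036 without Control muscles 2 and 6, -0.0050, -0.035 and -0.0065 without *FRAIL1* muscles 1, 4 and 6), and the r between same-numbered muscles spanned -0.30 to 0.28 for *Ifitm3* and -0.26 to 0.61 for *Ifitm10*. Causes were not tested.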
